A study of Mus musculus with 12 samples.

Results

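A set of 10 genes that edit ubiquitin chains in NF-kB signalling, or that the pathway uses to keep cells alive, was followed in mouse microglial cells. They were Cyld, Otulin, Tnfaip3, Tnip1, Traf1, Traf2, Birc2, Birc3, Cflar and Bcl2a1b, picked by symbol for their role in the pathway. The choice was made with earlier results of these data known. Each of the 10 symbols had 1 row among the 30994 genes counted, and all 10 passed the filter on low counts in both nascent and total RNA.

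TNF and Toll-like receptors, once bound, assemble a scaffold of adaptor proteins in which ubiquitin chains recruit the kinases that release NF-kB. TRAF2 and the ubiquitin ligases cIAP1 and cIAP2, encoded by Birc2 and Birc3, help to build those chains. CYLD, OTULIN and A20, the product of Tnfaip3, take them apart or edit them, and Tnip1 encodes ABIN1, which binds ubiquitin and A20. NF-kB in turn transcribes survival genes such as Cflar (the caspase-8 regulator c-FLIP), Traf1 and Bcl2a1b (a mouse copy of the anti-apoptotic Bcl-2 relative A1), and several of the inhibitors, Tnfaip3 among them. In microglia, the resident macrophages of the brain, this circuit limits inflammatory signalling and helps to decide whether TNF leads to survival or death.

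The cells were SIM-A9, an immortalised microglial line listed as C57BL/6, so all libraries share a single line. Every culture first received 10 µM polymyxin B, an antibiotic that binds endotoxin, for 1 h, and at the end a 90 min pulse of 100 µM 4-thiouridine. The 4 groups, with 3 biological replicates each, were C13 with TDP-43, C13 with sham, DMSO with TDP-43 and DMSO with sham. C13 (10 µM for 1 h before the aggregates) is described by the submitters as an inhibitor of the kinase MOK, and DMSO is its solvent. TDP-43 aggregates, or a sham preparation, were present at 5 µg/mL for 4 h in all. The assay, SLAM-seq, tells RNA made during the pulse (nascent) from the rest by base changes at 4-thiouridine, and here it read mRNA 3′ ends. Levels are given as CPM, counts scaled to a common library size within the table they come from and with no length correction, because 3′ end libraries give about 1 fragment per transcript.

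Depth ran from 17436397 to 41779882 total reads per library, and nascent reads were 1.88% to 7.11% of them. The highest share was that of the second replicate of DMSO with sham, and the next highest was 3.40%. The third replicates of C13 with sham and DMSO with TDP-43 stood apart from the other 10 on the first principal component of both tables (at 93.3 and 91.7 in total RNA, against -31.0 to -1.73 for the others). On the second component they lay at opposite ends in both tables, at 88.7 and -95.2 in total RNA. For some results, values without them are given as well, and all other values include them. Of 14 microglia and macrophage markers, 12 had a median of at least 1 CPM, while C1qa and Tmem119 stayed below it, at 0.282 and 0.334 CPM. The markers sum to 958 to 1632 CPM in the 12 libraries. Astrocyte, neuron, fibroblast and endothelial lists summed to at most 1.57 CPM in any library, and of the oligodendrocyte list Mbp was counted (median 22.6 CPM), with Mog and Mobp at a median of 0. In bulk RNA, fewer cells of a type and less RNA per cell cannot be told apart.

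The start regions of 5 of the genes are printed because 3 of them, Cyld, Tnfaip3 and Tnip1, hold the consensus kB motif that NF-kB dimers bind, whereas those of Traf1 and Bcl2a1b, the genes whose total RNA differed most between groups relative to its error, do not. Each is 300 bases in RefSeq on GRCm38.p6, from 250 bases before the annotated start to 50 after it, read 5′ to 3′ along the gene's strand. Capitals mark every match to the kB consensus, searched on both strands, overlapping matches merged. Cyld, at chr8:88696778-88697077 on the plus strand, has 1 match, 155 bases upstream of the start. Tnfaip3, at chr10:19015361-19015660 on the minus strand, has matches 125 and 12 bases upstream. Tnip1, at chr11:54962891-54963190 on the minus strand, has overlapping matches that begin 58 bases upstream. Traf1 is at chr2:34961723-34962022 on the minus strand and Bcl2a1b at chr9:89199023-89199322 on the plus strand.
Cyld: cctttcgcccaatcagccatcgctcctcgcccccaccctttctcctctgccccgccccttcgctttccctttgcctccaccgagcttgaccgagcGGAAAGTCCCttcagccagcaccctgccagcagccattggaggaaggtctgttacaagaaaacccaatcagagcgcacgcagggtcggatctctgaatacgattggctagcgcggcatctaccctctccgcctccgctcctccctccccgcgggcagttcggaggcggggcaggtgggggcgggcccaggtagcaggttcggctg
Tnfaip3: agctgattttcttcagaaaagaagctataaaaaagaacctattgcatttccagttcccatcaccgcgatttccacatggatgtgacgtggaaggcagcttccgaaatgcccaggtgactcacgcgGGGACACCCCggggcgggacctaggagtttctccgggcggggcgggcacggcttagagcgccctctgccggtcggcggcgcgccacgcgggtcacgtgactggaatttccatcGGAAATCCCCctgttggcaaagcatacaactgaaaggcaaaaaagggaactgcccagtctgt
Tnip1: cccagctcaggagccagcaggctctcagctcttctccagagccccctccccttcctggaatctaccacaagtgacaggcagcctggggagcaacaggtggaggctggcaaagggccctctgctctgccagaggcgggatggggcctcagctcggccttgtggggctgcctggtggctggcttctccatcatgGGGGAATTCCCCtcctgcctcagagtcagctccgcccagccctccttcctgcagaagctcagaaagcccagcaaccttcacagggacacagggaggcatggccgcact
Traf1: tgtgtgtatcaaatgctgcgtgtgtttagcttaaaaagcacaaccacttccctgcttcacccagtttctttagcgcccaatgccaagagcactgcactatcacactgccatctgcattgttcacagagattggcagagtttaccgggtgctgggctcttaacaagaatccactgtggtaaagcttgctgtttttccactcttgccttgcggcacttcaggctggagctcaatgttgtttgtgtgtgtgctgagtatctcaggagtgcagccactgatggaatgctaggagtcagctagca
Bcl2a1b: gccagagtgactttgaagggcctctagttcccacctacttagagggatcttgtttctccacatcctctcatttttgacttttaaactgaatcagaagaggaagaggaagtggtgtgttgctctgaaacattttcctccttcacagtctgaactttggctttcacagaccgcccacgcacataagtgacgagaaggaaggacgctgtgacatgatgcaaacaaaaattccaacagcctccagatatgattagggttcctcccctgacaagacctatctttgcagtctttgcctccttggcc

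All 10 genes matched an entry, and 3 of 10 held the consensus in a window, against 8.46% of all 32851 windows of the same length, where a gene can have several windows. The looser pattern GGGNNNNNCC, which overlaps the consensus, was in windows of 8 of the 10 genes and in 50.8% of all windows. Traf1 and Birc2 had no match to either form. A match is a run of letters and not a measured binding site, and its absence here says only that these letters are not in this window.

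The genes covered a wide range of levels in total RNA. Over the 12 libraries the median was 1077 CPM for Tnip1, 598 CPM for Cyld, 391 CPM for Bcl2a1b, 129 CPM for Cflar, 92.7 CPM for Traf2, 91.7 CPM for Traf1, 63.7 CPM for Otulin, 23.7 CPM for Birc3, 14.8 CPM for Birc2 and 0.949 CPM for Tnfaip3. Traf2 and Traf1 are neighbours whose ranges overlap (65.2 to 123 CPM and 67.9 to 133 CPM), and so are Birc3 (11.1 to 41.5 CPM) and Birc2 (1.15 to 48.7 CPM). All counts of Tnip1 were multiples of 6, and those of Tnfaip3 and Birc2 multiples of 2. No reason is stated in the labels or headers. Divided by that factor, the medians would be 180 CPM for Tnip1, which puts it below Cyld and Bcl2a1b, 7.40 CPM for Birc2 and 0.475 CPM for Tnfaip3. A factor of 2 or more was shared by all counts of 1917 of 9932 genes with a mean above 50 total reads.

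**Figure D1:**
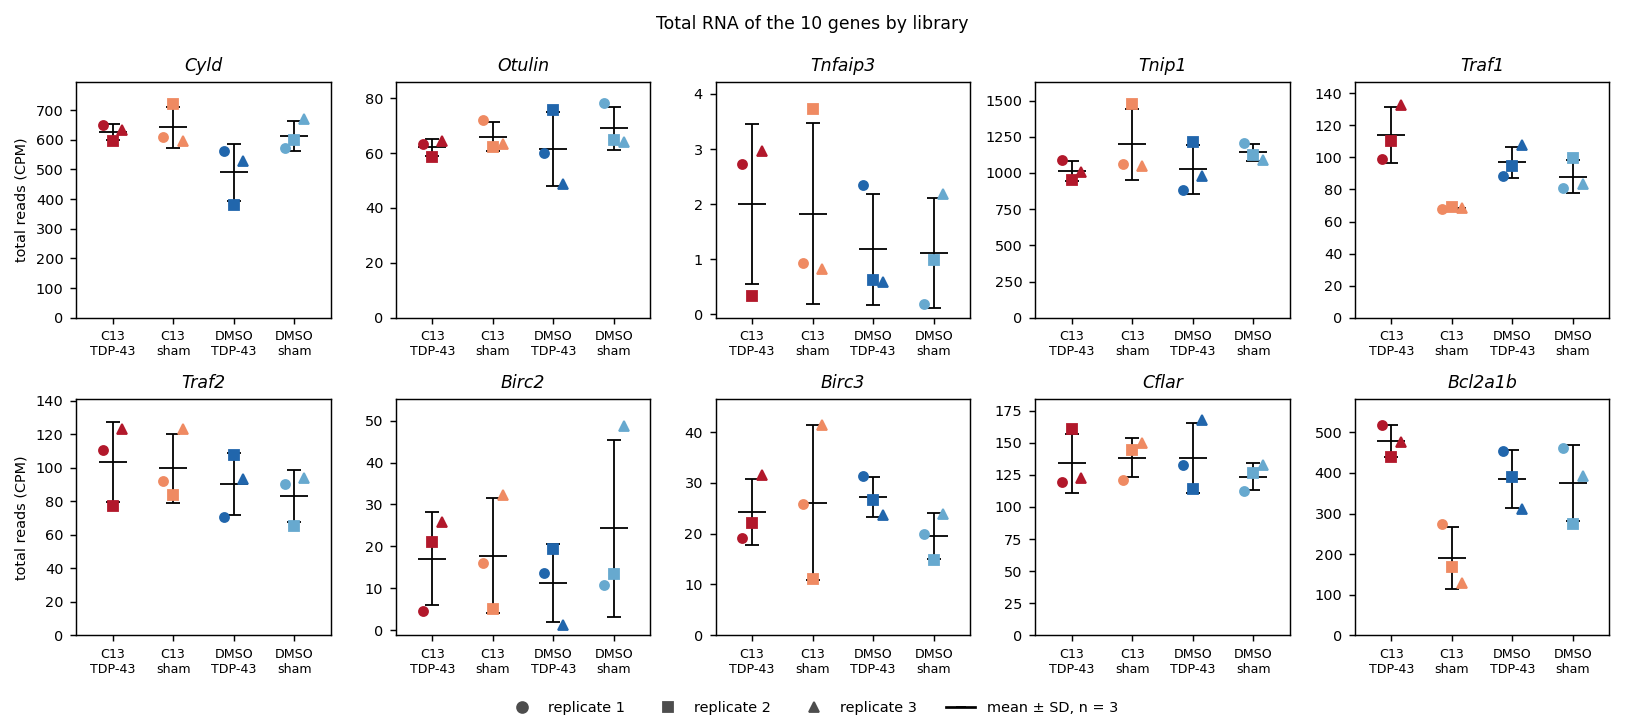
Total reads (CPM) of each of the 10 genes in each library, by group; points are replicates 1 to 3 and bars the mean ± SD, n = 3. Bcl2a1b sits at 439 to 518 CPM in C13 with TDP-43 and at 129 to 275 CPM in C13 with sham, and Traf1 is tightly grouped at 67.9 to 68.8 CPM in C13 with sham.

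The nascent share, nascent reads as a percentage of a gene's total reads over all libraries, separated the genes as well. The median of the 7078 genes tested in nascent RNA was 3.05%, with quartiles of 2.21% and 4.48%. A20 mRNA (Tnfaip3) had the highest share of the 10, at 16.03% (84 of 524 reads), at percentile 98.6 of those genes, although in 1 library all 6 of its reads were nascent. Traf2 followed at 9.86% and Cflar at 6.49%, then Birc3 at 5.84%, Otulin at 5.62% and Traf1 at 5.46%. Birc2 stood at 4.64%, Tnip1 at 3.66% and Cyld at 2.55%. Bcl2a1b was lowest in this pooled measure, at 1.67% (2231 of 133889 reads), at percentile 9.45. The order was not the same in every group: in DMSO with TDP-43, Cyld averaged 0.545% ± 0.119 and Bcl2a1b 1.44% ± 0.855 (SD, n = 3 each). In all, 8 of the 10 lay above the median, which is a description of these libraries. The plot of level against share places them among all genes tested. At levels as low as that of Tnfaip3, a gene could pass the filter on nascent counts only with a high share, and its neighbours in the plot lie above the median as well.

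**Figure D2:**
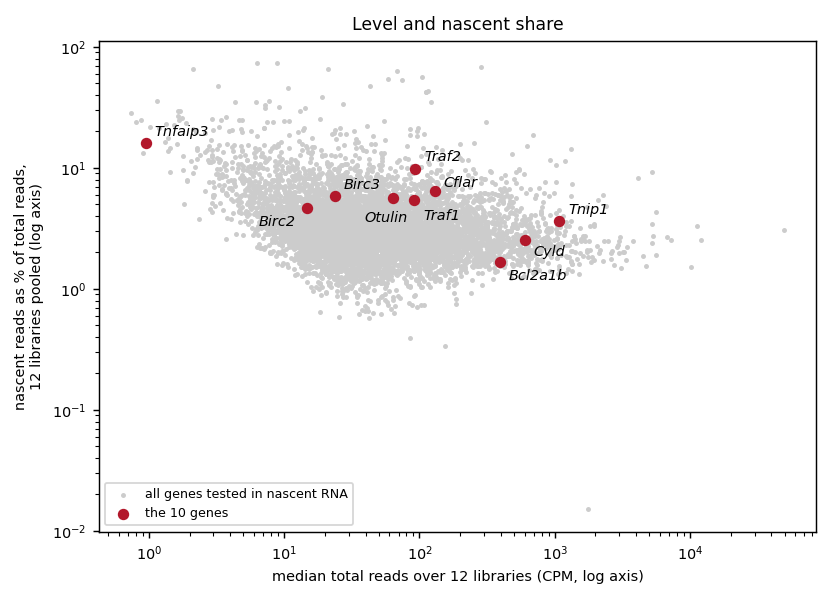
Median total reads (CPM, log axis) against the nascent share pooled over 12 libraries (percent, log axis) for the 7078 genes tested in nascent RNA (grey) and the 10 genes (red). Tnfaip3 lies at the upper left, at 0.949 CPM and 16.03%, and Bcl2a1b at the lower edge, at 391 CPM and 1.67%.

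The 10 genes were compared by drug within each aggregate arm, by aggregate within each drug arm, averaged over the other treatment, and by the interaction. edgeR's quasi-likelihood test, with p-values adjusted over all genes of the table, called 0 of the 10 in any of these 7 comparisons in either table. Over all genes it called 0% in every comparison but TDP-43 against sham averaged over drug arms in nascent RNA, where it called 0.0141%. Among the 10 genes in nascent RNA, 1 had an unadjusted p under 0.05 in C13 against DMSO with TDP-43, 0 with sham, 1 in TDP-43 against sham with DMSO and 0 with C13. The corresponding shares of all genes were 4.59%, 6.89%, 3.19% and 8.45%. In the averaged comparisons and the interaction it was 1 each, and that gene was Cyld every time, beside 5.59% of all genes for TDP-43, 5.96% for C13 and 7.59% for the interaction. Among the 10 genes in total RNA, the counts were 0 for C13 against DMSO with TDP-43, 1 with sham, 0 for TDP-43 against sham with DMSO and 2 with C13, beside 5.98%, 6.1%, 4.36% and 8.84% of all genes. They were 2 for TDP-43 averaged, 0 for C13 averaged and 2 for the interaction, beside 4.73%, 4.08% and 7.96% of all genes, and the genes were Bcl2a1b and Traf1 throughout. In the fit of nascent against other reads edgeR also called 0 of the 10, beside 0% of all genes for C13 against DMSO with TDP-43 or averaged and 0.0141% for TDP-43 averaged. At an unadjusted p under 0.05 it had Cyld in the first of these and Tnip1 in the last, beside 3.6% and 4% of all genes, and 0 of the 10 for C13 averaged, beside 4.04%.

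DESeq2, run on the same genes, called Bcl2a1b and Traf1 in TDP-43 against sham with C13 in total RNA, where it called 0.837% of all genes. It called 0 of the 10 in the other comparisons. There it called, of all nascent genes, 0.254% for C13 against DMSO with TDP-43, 0.41% with sham, 0.0989% for TDP-43 against sham with DMSO, 1.09% with C13, 0.184% for TDP-43 averaged, 0.141% for C13 averaged and 0.65% for the interaction. Of all genes in total RNA it called 0.254% for C13 against DMSO with TDP-43, 0.347% with sham, 0.0676% for TDP-43 against sham with DMSO, 0.279% for TDP-43 averaged, 0.178% for C13 averaged and 0.913% for the interaction. edgeR without the filter on low counts called Bcl2a1b in 4 comparisons of total RNA: TDP-43 against sham with C13 (0.689% of all genes), C13 against DMSO with sham (0.328%), TDP-43 averaged (0.183%) and the interaction (0.689%).

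**Figure D3:**
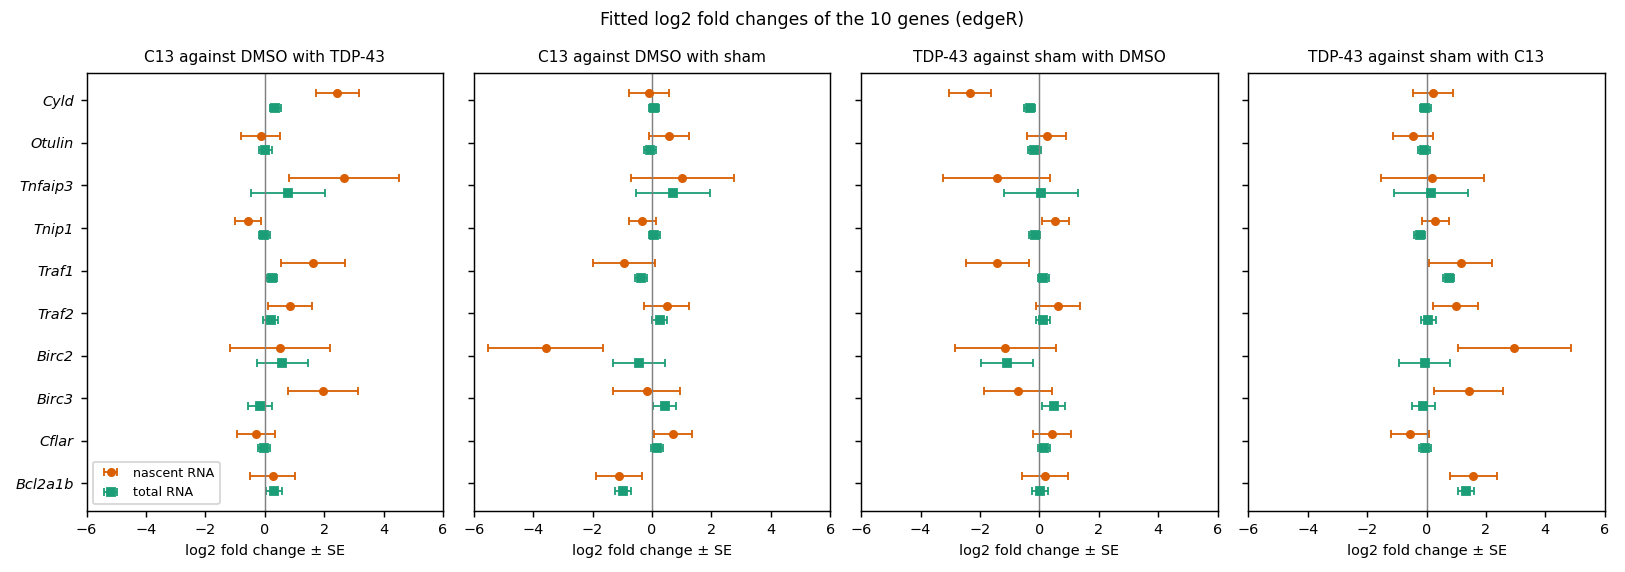
Fitted log2 fold changes ± SE (edgeR) of the 10 genes in the 4 pairwise comparisons, for nascent (circles) and total RNA (squares). Nascent Cyld stands at 2.45 for C13 against DMSO with TDP-43 and at -2.32 for TDP-43 against sham with DMSO, and total Bcl2a1b at 1.33 for TDP-43 against sham with C13.

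Cyld encodes the deubiquitinase that removes lysine-63-linked and linear chains from NF-kB scaffolds, and its nascent RNA was low in DMSO with TDP-43. Nascent reads of Cyld (chromosome 8, 88697028 to 88751945, GRCm38, plus strand) numbered 686, 343 and 602 in C13 with TDP-43 and 448, 406 and 49 in C13 with sham. They numbered 74, 70 and 88 in DMSO with TDP-43 and 651, 1477 and 704 in DMSO with sham. The 3 libraries of DMSO with TDP-43 lay below every library of the other groups but the third replicate of C13 with sham.

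As CPM, nascent Cyld averaged 614 ± 297 in C13 with TDP-43, against 113 ± 62.6 in DMSO with TDP-43 (SD, n = 3 each). The groups did not overlap, which held in that direction for 6.02% of all genes. The log2 fold change was 2.45 (SE 0.71, edgeR unadjusted p = 0.00288, adjusted p = 0.9897), or 5.46-fold. For TDP-43 against sham with DMSO, nascent Cyld averaged 113 ± 62.6 CPM in DMSO with TDP-43 and 561.5 ± 77.4 CPM in DMSO with sham (SD, n = 3 each), again with no overlap, as for 6.56% of all genes in that direction. The log2 fold change was -2.32 (SE 0.71, edgeR adjusted p = 1.000, unadjusted p = 0.00415). The interaction of C13 and TDP-43 was 2.55 in log2 units (SE 0.96, edgeR unadjusted p = 0.0167, adjusted p = 0.559). With C13, the aggregates' log2 fold change was 0.23 (SE 0.67), and in the sham arm that of C13 was -0.10 (SE 0.67). Without the third replicate of C13 with sham they were -0.21 and 0.31.

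Without the 2 libraries that stood apart, nascent Cyld stood at 2.87 in log2 units (SE 0.60, edgeR adjusted p = 0.969) for C13 against DMSO with TDP-43 and -2.75 (SE 0.59, edgeR adjusted p = 0.999) for TDP-43 against sham with DMSO. Over all alternatives, by edgeR or DESeq2, the lowest adjusted p was 0.0948 for the former comparison and 0.129 for the latter. Neither passed the threshold. Scaling within the nascent table assumes that most genes gave the same nascent RNA. With the library sizes of the total table instead, the median of all genes moved to 0.14 for C13 against DMSO with TDP-43 and to -0.84 for TDP-43 against sham with DMSO, and Cyld stood at 2.73 (SE 0.84) and -3.26 (SE 0.86). The comparison at -0.84 includes the second replicate of DMSO with sham, whose nascent share was 7.11%. The part of that library in the shift was not tested.

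Total Cyld RNA was also lowest on average in DMSO with TDP-43, with smaller differences. It was 648, 596 and 632 CPM in C13 with TDP-43 and 610, 720 and 596 CPM in C13 with sham. It was 562, 381 and 528 CPM in DMSO with TDP-43 and 572, 599 and 670 CPM in DMSO with sham. DMSO with TDP-43 thus lay below both C13 with TDP-43 and DMSO with sham with no overlap, which held for 6.97% and 6.41% of all genes in those directions. The log2 fold changes were 0.35 (SE 0.18, edgeR adjusted p = 0.837) for C13 against DMSO with TDP-43 and -0.32 (SE 0.18, edgeR adjusted p = 0.999) for TDP-43 against sham with DMSO.

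The nascent share of Cyld does not depend on scaling between libraries of a table. It was 4.25%, 1.61% and 2.76% in C13 with TDP-43 and 4.24%, 2.84% and 0.189% in C13 with sham. It was 0.670%, 0.433% and 0.533% in DMSO with TDP-43 and 3.61%, 6.67% and 2.72% in DMSO with sham. Divided by the nascent share of its library, it averaged 1.01 ± 0.479 in C13 with TDP-43, 0.808 ± 0.634 in C13 with sham, 0.206 ± 0.0666 in DMSO with TDP-43 and 0.997 ± 0.0606 in DMSO with sham (SD, n = 3 each). In the edgeR fit of nascent against other reads with the library as a term, the log2 difference for C13 against DMSO with TDP-43 was 2.14 (SE 0.69, unadjusted p = 0.00693, adjusted p = 1). That fit had an unadjusted p under 0.05 for 3.6% of all genes.

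Averaged over arms, the log2 of this relative share of Cyld differed by 0.63 between C13 and DMSO (two-sided exact permutation p = 0.47) and by -0.74 between TDP-43 and sham (two-sided exact permutation p = 0.425), each over 400 arrangements with a smallest possible p of 0.005. The third replicate of C13 with sham, with 49 nascent Cyld reads, moved these values most: without it they were 1.22 (exact permutation p = 0.015) and -1.33 (exact permutation p = 0.045). Without the first replicate of the same group they moved the other way, to 0.29 (exact permutation p = 0.77) and -0.40 (exact permutation p = 0.66). With a library left out there were fewer than 400 arrangements. Of the 10 genes only Cyld was tested this way, chosen with earlier results of these data known. The permutation p-values were not adjusted for that choice or for the choice of library. Among the 12, the third replicate of C13 with sham also had the lowest nascent share, 1.88%, and the highest share of mitochondrial ribosomal RNA, 3.70%. Their part in the result was not tested.

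**Figure D4:**
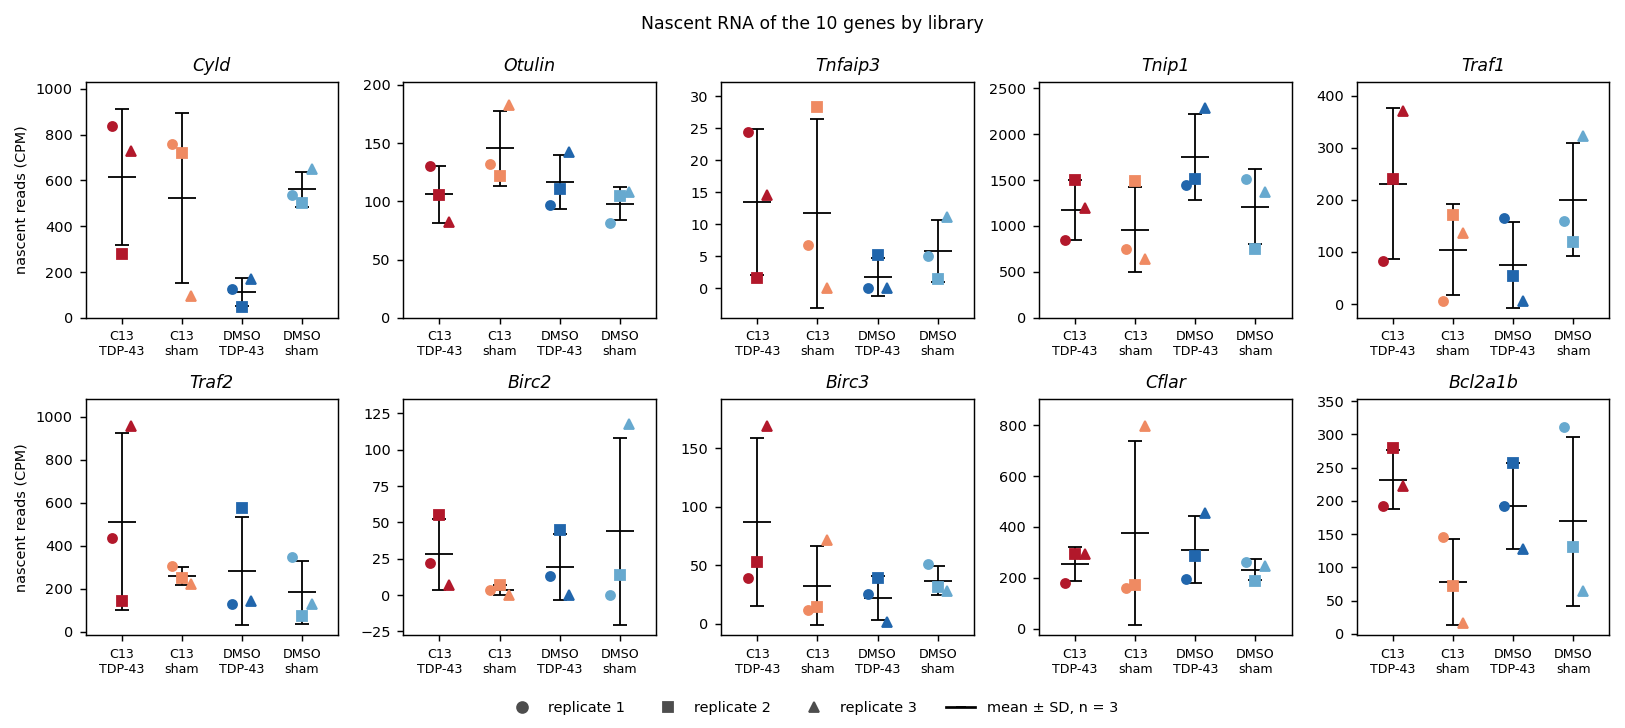
Nascent reads (CPM of the nascent table) of each of the 10 genes in each library, by group; points are replicates 1 to 3 and bars the mean ± SD, n = 3, so that a bar can reach below 0. Cyld lies between 45.8 and 170 CPM in DMSO with TDP-43 and between 499.4 and 648 CPM in DMSO with sham.

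Otulin encodes the deubiquitinase that cleaves linear chains, and it was among the steadiest of the 10 in total RNA. It averaged 62.1 ± 3.21 CPM in C13 with TDP-43, 65.9 ± 5.32 CPM in C13 with sham, 61.5 ± 13.4 CPM in DMSO with TDP-43 and 69.0 ± 7.88 CPM in DMSO with sham (SD, n = 3 each). In the 4 pairwise comparisons its log2 fold changes in total RNA ran from -0.17 to 0.01, with an SE of 0.21. Nascent Otulin was 132, 122 and 183 CPM in C13 with sham, against 81.6, 104 and 108 CPM in DMSO with sham, with no overlap, as for 5.13% of all genes in that direction. Fitted, it came to 0.57 in log2 units (SE 0.66, edgeR adjusted p = 0.908), and to 0.29 without the third replicate of C13 with sham. With the library sizes of the total table it was -0.53, against a median of -1.02 over all genes, so its sign depended on the scaling. This comparison also includes the second replicate of DMSO with sham, with a nascent share of 7.11%, and the part of that library was not tested. The gene overlaps an annotated protein-coding gene on the opposite strand outside their exons.

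Tnfaip3, which encodes the ubiquitin-editing enzyme A20 and is a textbook NF-kB target, was close to the limit of detection. Its total counts ran from 6 to 102 reads per library, and its nascent counts from 0 to 20. Nascent reads numbered 20, 2 and 12 in C13 with TDP-43 and 4, 16 and 0 in C13 with sham. They numbered 0, 8 and 0 in DMSO with TDP-43 and 6, 4 and 12 in DMSO with sham. No group stood clear of another. The log2 fold change for C13 against DMSO with TDP-43 was 2.66 in nascent RNA (SE 1.85, edgeR adjusted p = 0.998) and 0.78 in total RNA (SE 1.25, edgeR adjusted p = 0.982). The nascent value rested on single libraries. It was 1.93 without the first replicate of C13 with TDP-43. Without the second replicate of DMSO with TDP-43, which leaves that group at 0 reads, the fit gave 6.75 (edgeR unadjusted p = 0.0470, adjusted p = 0.756), a value that depends on the prior count and is no bound. In the 3 libraries with 0 nascent reads, 18 to 46 total reads were counted, and 3 counts of that total would allow a share of up to 6.52% to 16.7%. Such limits cover counting error only. All counts of Tnfaip3 were multiples of 2, so these limits are too low if that factor came from counting reads more than once. A difference of the size of its SE was not detectable at this depth.

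Tnip1, whose product ABIN1 works with A20, was abundant. Its total RNA averaged 1015 ± 69.3 CPM in C13 with TDP-43, 1197 ± 243 CPM in C13 with sham, 1025 ± 169 CPM in DMSO with TDP-43 and 1142 ± 61.1 CPM in DMSO with sham (SD, n = 3 each). For TDP-43 against sham its log2 fold change was -0.24 with C13 and -0.16 with DMSO (SE 0.19 each), and the groups overlapped. Nascent Tnip1 averaged 1178 ± 327 CPM in C13 with TDP-43, 960 ± 459 CPM in C13 with sham, 1749 ± 469 CPM in DMSO with TDP-43 and 1208 ± 408 CPM in DMSO with sham (SD, n = 3 each). The nascent log2 fold change for TDP-43 against sham averaged over drug arms was 0.41 (SE 0.32, edgeR adjusted p = 0.955), opposite in sign to the total value of -0.20 (SE 0.13, edgeR adjusted p = 0.948). Set against its other reads in 1 fit, nascent Tnip1 differed by 0.69 (SE 0.31, edgeR unadjusted p = 0.0378, adjusted p = 1), in a fit with an unadjusted p under 0.05 for 4% of all genes.

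Traf1 encodes a TRAF family adaptor without a RING domain that binds TRAF2 and the cIAPs, and its total RNA was low in C13 with sham. It was 98.96, 110 and 133 CPM in C13 with TDP-43 and 67.9, 68.8 and 68.2 CPM in C13 with sham. It was 88.6, 94.8 and 107 CPM in DMSO with TDP-43 and 81.1, 99.7 and 83.2 CPM in DMSO with sham. The C13 with sham libraries lay below all 9 others.

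For TDP-43 against sham with C13, the groups did not overlap, which held in that direction for 6.69% of all genes. The log2 fold change of total Traf1 was 0.74 (SE 0.19, edgeR unadjusted p = 0.00165, adjusted p = 0.343), or 1.67-fold. DESeq2 gave it an adjusted p of 0.0233. With DMSO it was 0.14 (SE 0.19, edgeR adjusted p = 0.999). The interaction was 0.60 (SE 0.27, edgeR unadjusted p = 0.0437, adjusted p = 0.605). For C13 against DMSO with sham, the groups did not overlap either, as for 5.72% of all genes in that direction, and the log2 fold change was -0.37 (SE 0.19, edgeR adjusted p = 0.847). Averaged over drug arms, the aggregates' log2 fold change was 0.44 (SE 0.14, edgeR adjusted p = 0.948). Without the 2 libraries that stood apart, the value with C13 was 0.75 (SE 0.22, edgeR adjusted p = 0.393).

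Nascent Traf1 was spread widely within groups. Reads numbered 67, 296 and 307 in C13 with TDP-43 and 3, 96 and 69 in C13 with sham. They numbered 99, 81 and 3 in DMSO with TDP-43 and 192, 350 and 351 in DMSO with sham. Every pair of groups overlapped as CPM, and the log2 fold change was 1.15 (SE 1.05, edgeR adjusted p = 0.811) for TDP-43 against sham with C13. It was 0.59 without the first replicate of C13 with sham and 1.80 without the second.

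Traf2 encodes the adaptor that brings the cIAPs to TNF receptors. Its total RNA averaged 104 ± 23.8 CPM in C13 with TDP-43, 99.8 ± 20.6 CPM in C13 with sham, 90.4 ± 18.8 CPM in DMSO with TDP-43 and 83.1 ± 15.6 CPM in DMSO with sham (SD, n = 3 each). Log2 fold changes in the 4 pairwise comparisons ran from 0.05 to 0.26 in total RNA, with an SE of 0.25. Nascent Traf2 ranged from 73.7 to 955 CPM, with 144 to 955 CPM among the replicates of C13 with TDP-43, and its log2 fold change for C13 against DMSO with TDP-43 was 0.85 (SE 0.75, edgeR adjusted p = 0.998). It was 0.01 without the third replicate of C13 with TDP-43 and 1.90 without the second of DMSO with TDP-43 (edgeR unadjusted p = 0.0369, adjusted p = 0.756).

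Birc2 and Birc3 encode cIAP1 and cIAP2, ubiquitin ligases that mark RIPK1 and hold the non-canonical NF-kB kinase in check. They lie next to each other on chromosome 9, and of 426 windows of 75 bases in the last 500 bases of either transcript, 0 occurred in the other. Total Birc3 averaged 24.3 ± 6.51 CPM in C13 with TDP-43, 26.1 ± 15.2 CPM in C13 with sham, 27.3 ± 3.92 CPM in DMSO with TDP-43 and 19.5 ± 4.56 CPM in DMSO with sham (SD, n = 3 each). Total Birc2 averaged 17.1 ± 11.2 CPM in C13 with TDP-43, 17.8 ± 13.7 CPM in C13 with sham, 11.3 ± 9.27 CPM in DMSO with TDP-43 and 24.3 ± 21.2 CPM in DMSO with sham (SD, n = 3 each). No pairwise difference of either gene in total RNA stood clear of the spread between replicates.

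Nascent Birc2 numbered 18, 68 and 6 reads in C13 with TDP-43 and 2, 4 and 0 reads in C13 with sham, against 8, 68 and 0 reads in DMSO with TDP-43 and 0, 40 and 128 reads in DMSO with sham. As CPM the C13 groups did not overlap, at 7.25 to 55.1 CPM with TDP-43 and 0 to 7.08 CPM with sham, as for 7.87% of all genes in that direction. On the log2 scale that was 2.96 (SE 1.89, edgeR adjusted p = 0.715). The 3 libraries with no nascent Birc2 read had 36 to 1408 total Birc2 reads.

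Nascent Birc3 was 39.1, 52.6 and 169 CPM in C13 with TDP-43 and 11.8, 14.2 and 71.4 CPM in C13 with sham. It was 25.1, 39.3 and 1.93 CPM in DMSO with TDP-43 and 51.1, 31.8 and 27.6 CPM in DMSO with sham. The groups overlapped in each of these comparisons. Its log2 fold change was 1.95 (SE 1.18, edgeR adjusted p = 0.998) for C13 against DMSO with TDP-43 and 1.42 (SE 1.16, edgeR adjusted p = 0.777) for TDP-43 against sham with C13. Without the third replicate of C13 with TDP-43 these were 1.03 and 0.58. Their highest values on leaving out 1 library were 2.67, without the second replicate of DMSO with TDP-43, and 2.79, without the third replicate of C13 with sham. The comparison with C13 gave 2.79 (edgeR unadjusted p = 0.0257, adjusted p = 0.563) without the 2 libraries that stood apart.

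Relative to the nascent share of the library, the nascent share of Birc3 was 2.25, 2.49 and 5.26 in C13 with TDP-43, against 0.490, 1.28 and 1.06 in C13 with sham. It was 0.863, 1.58 and 0.0633 in DMSO with TDP-43, against 2.89, 2.43 and 1.19 in DMSO with sham. The highest value was that of the third replicate of C13 with TDP-43 and the lowest that of the third replicate of DMSO with TDP-43. In the edgeR fit of nascent against other reads, C13 against DMSO with TDP-43 gave 2.41 (SE 1.26, unadjusted p = 0.0724, adjusted p = 1).

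**Figure D5:**
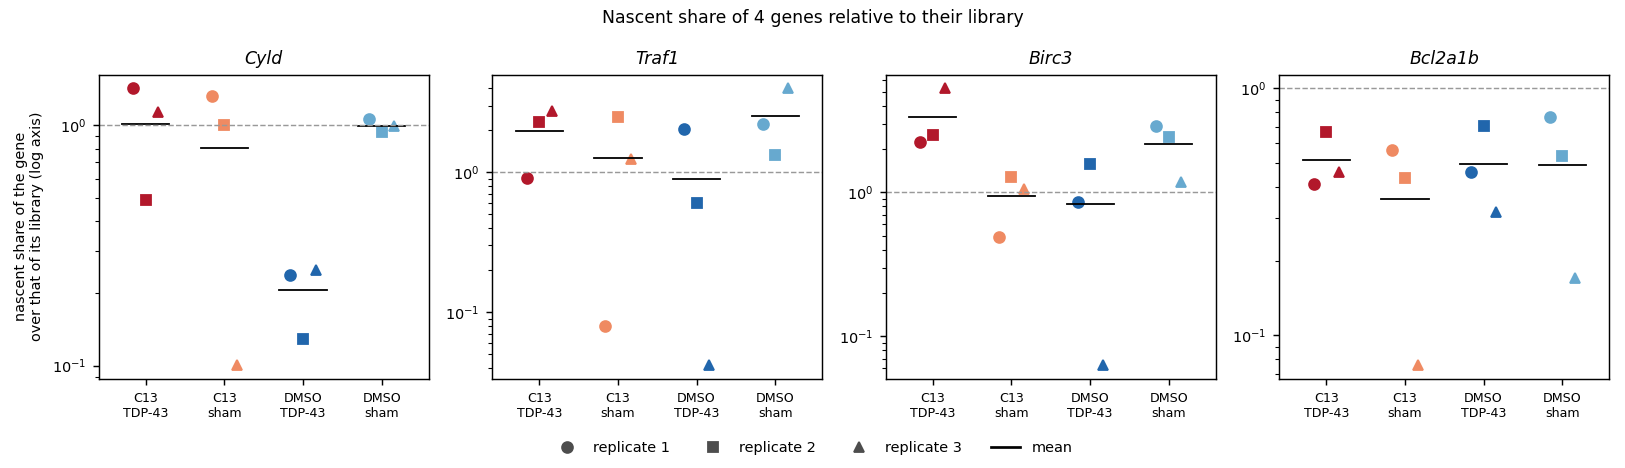
Nascent share of Cyld, Traf1, Birc3 and Bcl2a1b divided by that of the library (log axis), by group; points are replicates 1 to 3, lines the mean, and the dashed line marks a gene labelled like its whole library. Cyld lies at 0.129 to 0.250 in DMSO with TDP-43, while the third replicate of C13 with sham is at 0.100.

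Cflar encodes c-FLIP, which blocks caspase-8 at death receptors. Its total RNA averaged 134 ± 22.9 CPM in C13 with TDP-43, 138 ± 15.1 CPM in C13 with sham, 138 ± 27.2 CPM in DMSO with TDP-43 and 124 ± 10.6 CPM in DMSO with sham (SD, n = 3 each). Log2 fold changes in total RNA ran from -0.05 to 0.16 in the pairwise comparisons, with an SE of 0.20. Nascent Cflar was 161, 173 and 796 CPM in C13 with sham and 264, 187 and 247 CPM in DMSO with sham. As a log2 fold change this was 0.69 (SE 0.64, edgeR adjusted p = 0.869), and without the third replicate of C13 with sham, which alone stood high, it was -0.56 (edgeR adjusted p = 0.961).

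Bcl2a1b, which encodes an A1 protein that holds pro-apoptotic Bcl-2 relatives in check, had the largest difference of the 10 genes in total RNA relative to its error. Total Bcl2a1b (chromosome 9, 89199209 to 89207827, GRCm38, plus strand) was 518, 439 and 477 CPM in C13 with TDP-43 and 275, 168 and 129 CPM in C13 with sham. It was 453, 391 and 312 CPM in DMSO with TDP-43 and 461, 275 and 392 CPM in DMSO with sham. All 3 libraries of C13 with sham were low, the highest of them equal to the lowest of DMSO with sham to 3 digits, and C13 with TDP-43 lay above C13 with sham with no overlap, as did 6.69% of all genes in that direction.

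For TDP-43 against sham with C13, total Bcl2a1b averaged 478 ± 39.9 CPM in C13 with TDP-43 and 191 ± 75.8 CPM in C13 with sham (SD, n = 3 each). The log2 fold change was 1.33 (SE 0.27, edgeR unadjusted p = 0.000184, adjusted p = 0.226), or 2.51-fold. DESeq2 gave an adjusted p of 0.000700, and edgeR without the filter on low counts gave 3.74e-05. With DMSO the log2 fold change was 0.04 (SE 0.27, edgeR adjusted p = 0.999). The interaction was 1.29 (SE 0.38, edgeR unadjusted p = 0.00374, adjusted p = 0.378), with an adjusted p of 0.0810 by DESeq2 and 0.0244 by edgeR without the filter. Without the first replicate of C13 with sham the value with C13 was 1.69 and passed the threshold (edgeR adjusted p = 0.0486). Without the 2 libraries that stood apart it was 1.12 (SE 0.27, edgeR adjusted p = 0.275).

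For C13 against DMSO, total Bcl2a1b had a log2 fold change of -0.98 with sham (SE 0.27, edgeR unadjusted p = 0.00231, adjusted p = 0.632) and 0.31 with TDP-43 (SE 0.27, edgeR adjusted p = 0.946). The edgeR fit without the filter called the comparison with sham (adjusted p = 0.0186), and DESeq2 gave an adjusted p of 0.0716. Averaged over drug arms, TDP-43 against sham gave 0.68 (SE 0.19, edgeR adjusted p = 0.948).

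Mitochondrial ribosomal RNA took 1.51%, 1.54% and 1.29% of total reads in C13 with TDP-43, against 1.80%, 2.37% and 3.70% in C13 with sham, and its part in the difference of Bcl2a1b or Traf1 was not tested. The summed microglia markers overlapped, at 1296 to 1523 CPM in C13 with TDP-43 and 958 to 1632 CPM in C13 with sham.

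Nascent Bcl2a1b was 193, 280 and 222 CPM in C13 with TDP-43 and 145, 72.5 and 15.9 CPM in C13 with sham. It was 192, 257 and 127 CPM in DMSO with TDP-43 and 312, 130 and 65.4 CPM in DMSO with sham. The C13 groups did not overlap, as for 7.87% of all nascent genes in that direction, at 1.57 in log2 units (SE 0.79, edgeR adjusted p = 0.619). Leaving out the first replicate of C13 with sham gave 2.39, and leaving out the third gave 1.14. In the fit of nascent against other reads, no comparison of Bcl2a1b had an unadjusted p under 0.05.

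Reads of Bcl2a1b may be shared with its copies. Of the 426 windows of 75 bases in the last 500 bases of its transcript, 207 (48.6%) also occurred in Bcl2a1d, 106 (24.9%) in Bcl2a1a and 0 in Bcl2a1c. The counts put 133889 total reads on Bcl2a1b, 2577 on Bcl2a1d, 247 on Bcl2a1a and 0 on Bcl2a1c, so how the authors assigned shared reads bears on its level. Bcl2a1d averaged 9.33 ± 2.93 CPM in C13 with TDP-43, 5.41 ± 1.73 CPM in C13 with sham, 6.50 ± 5.68 CPM in DMSO with TDP-43 and 6.81 ± 3.43 CPM in DMSO with sham (SD, n = 3 each). The 247 reads of Bcl2a1a were 30 in C13 with TDP-43, 1 in C13 with sham, 35 in DMSO with TDP-43 and 181 in DMSO with sham. Bcl2a1b also overlaps the exons of the annotated gene Gm29094 on its own strand, which has no row of its own.

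Wider lists of genes gave the surroundings of these 10. The ubiquitin machinery of TNF and Toll-like receptor signalling had 34 of 35 genes tested in total RNA and 27 in nascent RNA, and edgeR called 0 of them in any comparison. In total RNA, 26 of the 34 were higher and 8 lower for TDP-43 against sham averaged over drug arms, with a median log2 fold change of 0.10 against -0.01 for all genes. For C13 against DMSO averaged over aggregate arms, 7 were higher and 27 lower, with a median of -0.14 against -0.01. Nascent RNA did not show the same split: of 27 genes, 15 were higher and 12 lower for TDP-43 averaged (median 0.03 against -0.02), and 17 were higher and 10 lower for C13 averaged (median 0.15 against -0.02). Among 25 genes of apoptosis and survival, 23 were tested in total RNA and 17 in nascent RNA, again with 0 called. In total RNA, 12 of the 23 were higher and 11 lower for TDP-43 against sham averaged over drug arms. For C13 averaged, 9 were higher and 14 lower, with a median of -0.08 against -0.01 for all genes.

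Genes named from both lists were picked for a small unadjusted p. In total RNA, 4 of the 34 in the first list had an unadjusted p under 0.05 for TDP-43 against sham with C13, beside 8.84% of all genes. For TDP-43 averaged it was also 4, beside 4.73%, and for C13 against DMSO with sham 1, beside 6.1%. Named members of the first list included both partners of the editors and kinases of the scaffold. Ikbke, which encodes the kinase IKK-epsilon, averaged 191 ± 14.2 CPM in C13 with TDP-43, 122 ± 47.6 CPM in C13 with sham, 222 ± 12.98 CPM in DMSO with TDP-43 and 185 ± 26.8 CPM in DMSO with sham (SD, n = 3 each). Its log2 fold change for TDP-43 against sham with C13 was 0.65 (SE 0.25, edgeR adjusted p = 0.531), and for C13 against DMSO with sham -0.60 (SE 0.25, edgeR adjusted p = 0.801). Tnip2, which encodes ABIN2, a relative of ABIN1, averaged 30.0 ± 5.91 CPM in C13 with TDP-43 and 13.4 ± 3.64 CPM in C13 with sham (SD, n = 3 each). That gave 1.16 (SE 0.42, edgeR adjusted p = 0.512). Ripk2, the kinase downstream of NOD receptors, had 0.68 (SE 0.28, edgeR adjusted p = 0.546) in the same comparison, and Ikbkb, which encodes IKK-beta, 0.53 (SE 0.21, edgeR adjusted p = 0.948) for TDP-43 averaged over drug arms.

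In nascent RNA, Rnf11, a RING protein that works with A20 and Itch, averaged 22.6 ± 10.0 CPM in C13 with TDP-43 and 210 ± 202 CPM in DMSO with TDP-43 (SD, n = 3 each). This was a log2 difference of -3.22 (SE 1.05, edgeR adjusted p = 0.9897). In the sham arm Rnf11 averaged 17.2 ± 6.84 CPM with C13 and 83.9 ± 61.9 CPM with DMSO (SD, n = 3 each). The log2 difference there was -2.28 (SE 1.02, edgeR adjusted p = 0.702). Nascent Peli1, which encodes the ubiquitin ligase Pellino-1, averaged 786 ± 487 CPM in DMSO with TDP-43 and 222 ± 20.8 CPM in DMSO with sham (SD, n = 3 each), at 1.82 in log2 units (SE 0.54, edgeR adjusted p = 1.000). Nascent Tank, which encodes a TRAF-binding adaptor, averaged 274 ± 125 CPM in C13 with sham and 105 ± 19.97 CPM in DMSO with sham (SD, n = 3 each), a difference of 1.38 in log2 units (SE 0.62, edgeR adjusted p = 0.705). At an unadjusted edgeR p under 0.05, 1 of the 27 listed genes was higher and 1 lower for C13 against DMSO with TDP-43. The share of all genes was 4.59%. It was also 1 and 1 for TDP-43 against sham with DMSO, beside 3.19%. For C13 against DMSO with sham it was 2 and 2, beside 6.89%.

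In the survival list, total Xiap, which encodes a caspase inhibitor, averaged 392 ± 5.27 CPM in DMSO with TDP-43 and 287 ± 36.5 CPM in DMSO with sham (SD, n = 3 each), at 0.45 in log2 units (SE 0.21, edgeR adjusted p = 0.999). Total Naip2, an inhibitor of apoptosis family member and inflammasome sensor, had -0.96 (SE 0.37, edgeR adjusted p = 0.531) for TDP-43 against sham with C13. In each of these comparisons 1 of the 23 survival genes had an unadjusted edgeR p under 0.05. The shares of all genes were 4.36% with DMSO and 8.84% with C13.

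Across the 12 libraries, the total RNA of 9 of the 10 genes could be set beside that of the 9932 genes with a mean above 50 reads, as a description of libraries that share groups and depth. Tnfaip3 had too few reads. Traf1 was most like Gm38431 (Pearson r = 0.92) and Cxcl10 (r = 0.91), a chemokine gene. Bcl2a1b was most like Srp54a (r = 0.95) and Pla2g5 (r = 0.94), and Cyld most like Cdc25b (r = 0.90). Among the 9 genes themselves, Traf1 and Bcl2a1b had r = 0.65, the highest among pairs of these genes, and Otulin and Cflar r = -0.86, the lowest. Cyld had r between -0.34 and 0.21 with each of the other 8.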

How the data were processed

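SLAM-seq was run on 12 libraries of SIM-A9 cells, with 3 biological replicates in each of 4 groups per the labels. Per the labels' protocols, RNA was treated with iodoacetamide and made into 3′ end libraries (QuantSeq). What the authors deposited are raw counts for each Ensembl gene, with nascent and total reads in separate tables. GRCm38 is the build named in the submitters' processing notes. Not given in the sources used here are the aligner, the annotation, the counter and the rule that marks a read as nascent. A GRCm38 annotation gave symbols to 30922 of 30994 identifiers.

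After filterByExpr, 7078 nascent and 11827 total genes were left. They were scaled by TMM, and the 4 group means were fitted to all 12 libraries of a table with edgeR 4.0.16 (R 4.3.3) and compared by quasi-likelihood tests. Benjamini-Hochberg adjustment ran over all genes tested, and an adjusted p under 0.05 was a call. A further edgeR fit held nascent and other reads together and had a term for each library. CPM were computed on TMM-scaled library sizes, and such scaling of the nascent table removes any global change in labelled RNA. The labels do not say whether replicates came from separate days, so p-values measure the spread between these cultures. Replicates differed by a chi-square of at least 27.7 per degree of freedom, so no library was treated as a copy of another.

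The 10 genes, the wider lists and the tests were chosen with earlier results of these data known. From the wider lists, the genes that could be named were, in each comparison, up to 4 with the smallest unadjusted p under 0.05. The genes most like a given gene were the 3 with the highest correlation. The alternatives were DESeq2's size factors in edgeR, no filter, DESeq2 1.42.0, a replicate block, each library left out, only the groups compared, leaving out 2 libraries that stood apart, counts divided by their common factor, and total library sizes for nascent counts.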

Additional observations from a re-analysis of the deposited data

How the results depend on the processing

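Under the alternatives, 3104 values of the 10 genes were recomputed, of which 203 changed sign, 193 of them where the reported value lay within 1 SE of 0. Depth limits Tnfaip3, with at most 102 total reads in a library. The cause of the changes below was not tested, except that leaving out libraries or genes changes what is fitted.

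The number of genes called over a whole table depended on the filter and the tool. With no filter on low counts, edgeR called 10 nascent genes for C13 against DMSO with TDP-43, 29 with sham, 6 for TDP-43 against sham with DMSO, 30 with C13, 18 for TDP-43 averaged, 11 for C13 averaged and 38 for the interaction. In total RNA, in the same order, it called 33, 59, 10, 124, 33, 18 and 124. DESeq2 called 18, 29, 7, 77, 13, 10 and 46 nascent genes and 30, 41, 8, 99, 33, 21 and 108 genes in total RNA. In the fit of nascent against other reads, no filter gave 7 calls for C13 against DMSO with TDP-43, 4 for TDP-43 averaged and 4 for C13 averaged. Of the 10 genes, the unfiltered fit called Bcl2a1b alone, also for TDP-43 averaged in total RNA (0.68, edgeR adjusted p = 0.0311).

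Other settings gave a few calls. For TDP-43 against sham with C13 in total RNA, 1 gene was called with only the groups compared and 1 without the 2 libraries that stood apart, which also gave 1 for TDP-43 averaged. Dividing counts by their common factor gave 2 calls for the interaction in total RNA. Leaving out 1 library at a time gave 0 to 1 calls in nascent RNA for TDP-43 against sham with C13, for TDP-43 averaged and for the interaction. In total RNA it gave 0 to 2 for C13 against DMSO with sham, 0 to 4 for TDP-43 against sham with C13, 0 to 1 for TDP-43 averaged, 0 to 2 for C13 averaged and 0 to 3 for the interaction, and in the fit of nascent against other reads 0 to 1 for both averaged comparisons.

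Deviations from the group means correlated by 0.0111 on average between same-numbered nascent libraries and by 0.0307 between total ones, over 18 pairs each. Between total ones they ran from -0.029 to 0.126. Whether libraries of the same number shared a batch was not tested. With a replicate block, edgeR called 0 genes for TDP-43 averaged in nascent RNA and 2 for the interaction in total RNA, and none of the 10 genes.

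Some signs turned. Nascent Cflar for C13 against DMSO with sham was -0.54 without the 2 libraries, -0.70 with total library sizes, and ran from -0.56 to 1.06 when 1 library was left out. Its interaction was 0.63 without the 2 libraries, 0.66 with total library sizes, and ran from -1.34 to 0.32 when 1 library was left out. Of these ends, -0.56 and 0.32 were without the third replicate of C13 with sham, and 1.06 and -1.34 without the first. Total Birc3 for C13 against DMSO with sham was -0.089 without the 2 libraries and ran from -0.079 to 0.78, and nascent Birc3 for C13 averaged was -0.059 without them. Nascent Tnip1 for TDP-43 against sham with DMSO was -0.20 with total library sizes, where the median of all genes was -0.84.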
